A study of Mus musculus with 48 samples.

Results

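The genes described here are 32 genes of cholesterol and fatty acid synthesis with their regulators, taken by gene symbol from a table of 49671 genes that was sequenced in NMM cells, a mouse melanoma line with a mutated NRAS gene. All 32 symbols were in the table and all 32 passed the filter on low counts. By role they comprise 7 genes of the mevalonate steps, 11 of squalene and sterol synthesis, 5 that control SREBP, 1 sterol carrier, 3 that supply acetyl-CoA or acetoacetyl-CoA and 5 of fatty acid synthesis. The list names members of known pathways and did not use the measured values, but it was chosen with earlier results of these data known.

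The study measured poly(A) RNA in 12 groups of these cells, cultured in medium with fetal calf serum and left unstimulated or kept in a cytokine without a break for 2, 6, 12 or 24 h. Interferon gamma (IFNy in the labels, IFNγ here) was given at 0.01, 1 or 100 ng/ml. TNFa in the labels, TNF here, was given at 0.1, 1 or 10 ng/ml. The combination was IFNγ at 100 ng/ml with TNF at 10 ng/ml. The other groups received IFNA1 (interferon alpha, 5000 U/ml), TGFb (TGF-β here, 10 ng/ml), lymphotoxin A1 B2 (2 ng/ml) or IL-2 (6000 U/ml). Every group shares the NRAS mutation, the medium and the serum. Each group had 1 library per duration, 48 in all, so no condition was repeated. Separate cultures are not stated in the labels. P-values then rest on how differences between stimuli varied over durations, pooled over the groups in a fit. This spread can hold technical differences between libraries and changes of an effect with time, and it does not measure repeats of a condition. Doses were read from the stimulus labels, since separate dose fields read 1 for the samples named 0.1 ng/ml TNF and 0.01 ng/ml IFNγ.

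Libraries held 5612907 to 9663207 counts and no 2 libraries were identical. The 32 genes took 0.249% of the counts in the lowest library, the combination at 12 h, and 0.563% in the highest, unstimulated cells at 12 h. The mitochondrially encoded share, a measure that can move with RNA quality, ranged from 0.513% to 1.44% and was lowest with the combination at 24 h. The combination left its usual traces: Irf1, a target of interferons, rose by 4.61 on the log2 scale and Nfkbia, a target of NF-κB, by 3.27. With lymphotoxin, IL-2 or IFNγ at 0.01 ng/ml, 0 of 12203 genes tested differed from unstimulated cells at an adjusted p under 0.05. With TNF at 0.1 ng/ml, 2 did. A response of the cells to these stimuli was therefore not seen by this test. Melanocyte lineage markers were low or absent in this melanoma line. Dct and Mlana had 0 counts in all 48 libraries, Tyr, Tyrp1 and Sox10 had 2 counts each over all libraries together, and only Mitf, at 29 to 97 counts per library, passed the filter of the 7 markers listed. Of the T and NK cell markers, Cd3e, Cd3g, Cd8a, Cd4 and Nkg7 had 0 counts in every library.

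Cells build cholesterol from acetyl-CoA through mevalonate, farnesyl pyrophosphate, squalene and lanosterol, and build fatty acids from the same acetyl-CoA. Most of these enzymes are transcribed under SREBP transcription factors, which are held in the endoplasmic reticulum by SCAP and the INSIG proteins when sterols are plentiful and are released to the nucleus when they are scarce. Melanoma cells, like other dividing cells, use both pathways to make membrane, and interferons are known to act on sterol synthesis in macrophages.

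SREBP is known to act beside the factors NF-Y and Sp1, so promoter sequences are shown for genes of contrasting behaviour. Mvd and Mvk had all 4 combination libraries below all 4 unstimulated ones, Hmgcs1 is a textbook SREBP target, and Sc5d did not pass the test with the combination. Each line gives the 150 bases that precede the RefSeq transcription start, read 5′ to 3′ on the gene's strand in build GRCm38.p6, where capitals mark 2 motifs on either strand, CCAAT for NF-Y and TCACNCCAC for SREBP.
Mvd (chr8:122443423-122443572, minus strand): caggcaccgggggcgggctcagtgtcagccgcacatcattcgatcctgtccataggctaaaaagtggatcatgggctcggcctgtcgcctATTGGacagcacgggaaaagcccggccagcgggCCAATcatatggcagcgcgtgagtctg
Mvk (chr5:114444119-114444268, plus strand): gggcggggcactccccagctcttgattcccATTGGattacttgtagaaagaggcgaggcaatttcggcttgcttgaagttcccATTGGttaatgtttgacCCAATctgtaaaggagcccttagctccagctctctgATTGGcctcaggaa
Hmgcs1 (chr13:119690201-119690350, plus strand): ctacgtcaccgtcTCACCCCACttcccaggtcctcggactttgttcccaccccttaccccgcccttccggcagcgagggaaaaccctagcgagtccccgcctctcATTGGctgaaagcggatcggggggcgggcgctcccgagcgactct
Sc5d (chr9:42264301-42264450, minus strand): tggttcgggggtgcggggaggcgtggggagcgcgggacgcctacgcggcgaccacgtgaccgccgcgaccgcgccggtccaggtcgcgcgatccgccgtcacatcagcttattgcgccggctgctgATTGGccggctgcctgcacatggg
The Mvd segment holds 2 NF-Y matches and the Mvk segment 4. Hmgcs1 has 1 SREBP-type match and 1 NF-Y match, and Sc5d 1 NF-Y match and 1 E-box (CACGTG). In the longer RefSeq windows, from 250 bases before to 50 after the start, 26 of the 32 genes could be matched, some with more than 1 start. On both strands, CCAAT was found for 21 of these 26 (80.8%, against 41.1% of all 27025 genes with a window), GGGCGG, the Sp1 letters, for 21 (80.8% against 38.2%), CACGTG for 5 (19.2% against 8.09%) and TCACNCCAC for 1 (3.85% against 1.44%). At least 2 CCAAT matches in a window were found for 11 of the 26 genes (42.3% against 13.3%). The 27025 genes were not limited to those expressed in these cells, whereas all 32 members passed the filter on low counts. A comparison with expressed genes alone was not made, so these gaps cannot be called a trait of the 32 genes. Among genes that fell with the combination, the largest number of CCAAT matches in a window varied. It was 0 for Acat2 and Elovl6, 1 for Lss and Tm7sf2, 2 for Mvd, 4 for Nsdhl and 5 for Mvk. Among genes not called, it was 0 for Aacs, 1 for Sc5d, 2 for Ebp and Idi1 and 3 for Fasn. A relation of match number to the decrease was not tested. Matches of different motifs may share letters, and a match describes letters only, not binding.

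In unstimulated cells the levels spanned more than 2 orders of magnitude. Levels are CPM (read counts scaled to library size with TMM factors) per kilobase of exon, over the 4 unstimulated libraries. Scd2, a stearoyl-CoA desaturase that makes monounsaturated fatty acids, was highest at 139 to 230.1 CPM per kilobase. Msmo1, the methylsterol monooxygenase, followed at 92.7 to 108, then Acly, the ATP citrate lyase that makes cytosolic acetyl-CoA, at 79.97 to 96.95 and the second desaturase Scd1 at 69.3 to 87.4. Scd2 stood clear of the next gene in every library, while the ranges of Msmo1, Acly and Scd1 overlapped their neighbours'. The ranges of Fasn, the fatty acid synthase (44.7 to 83.8), Sqle, the squalene epoxidase (51.8 to 68.3), and Hmgcs1, the HMG-CoA synthase (48.01 to 68.5), overlapped too. The SREBP genes lay in the middle, Srebf2 at 42.7 to 51.6 and Srebf1 at 25.5 to 34.6 CPM per kilobase. Pmvk, Idi1 and the sterol reductase Tm7sf2 were low and overlapped (3.90 to 5.88 for Tm7sf2), and Acss2, which makes acetyl-CoA from acetate, was lowest at 0.884 to 1.503.

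The combination was compared with unstimulated cells to ask how the 2 cytokines together changed these genes. Values are log2 changes averaged over the 4 durations with an approximate standard error, and a gene is called when its adjusted p from edgeR's quasi-likelihood test over all 12203 genes is under 0.05. With the combination, 27 of 32 genes fell and 0 rose, against 21.2% of all genes tested that fell. The median change of the 32 was -0.60, against -0.03 for all genes tested. All comparisons with unstimulated cells share the same 4 unstimulated libraries. In bulk RNA, fewer transcripts per cell and a shift in the cells measured cannot be told apart. DESeq2 also called 27. With the combination and unstimulated libraries fitted alone, 6 fell (Mvk, Msmo1, Dhcr7, Insig1, Scd1 and Scd2), against 6.36% of the genes tested in that fit. Fits of only the compared groups did not lower the number of calls for every stimulus, as described for TNF below. Why the number was lower for the combination was not tested. Without the 12 h libraries 19 fell, against 12.4%.

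**Figure D1:**
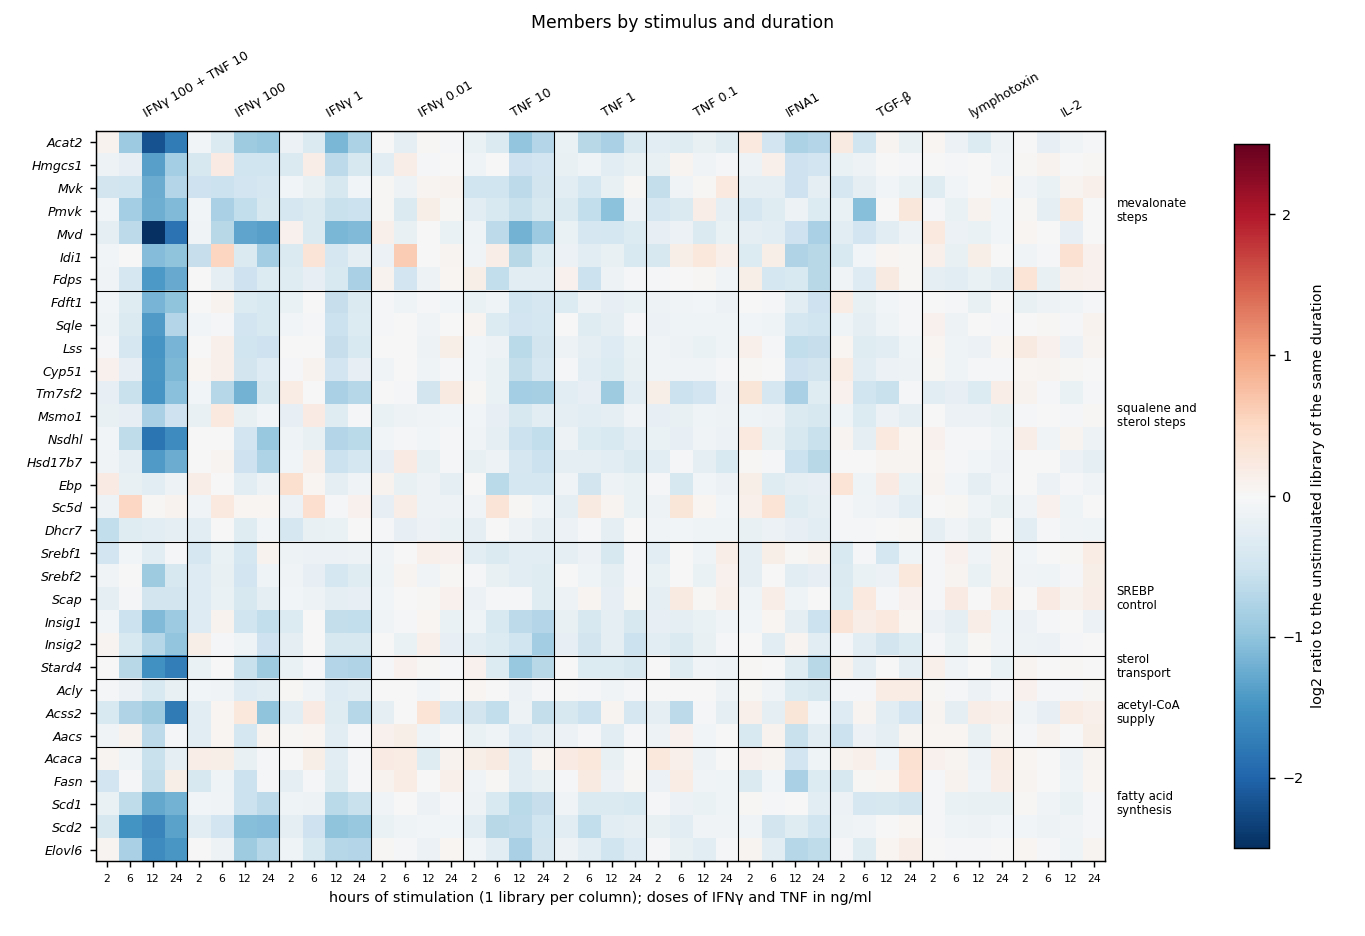
Each cell of the map is the log2 ratio of 1 library to the unstimulated library of the same duration, with the 32 genes in rows by role and the stimuli and hours in columns. The deepest blue columns are those of the combination at 12 and 24 h, where the medians were -1.20 and -0.99, and the columns of lymphotoxin and IL-2 are near 0.

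Of the 7 enzymes of the mevalonate steps, 6 fell with the combination, against 21.2% of all genes tested, with a median of -0.75. Mvd, mevalonate diphosphate decarboxylase, which makes the first isoprenoid unit, gave 23.2, 30.7, 35.5 and 34.2 CPM at 2, 6, 12 and 24 h in unstimulated cells and 19.9, 19.5, 6.06 and 9.36 CPM with the combination. All 4 combination libraries were below all 4 unstimulated ones, and the gap was widest at 12 h. Its change was -1.16 ± 0.23 SE, adjusted p = 8.30e-05, and the gene (ENSMUSG00000006517, chromosome 8, 122433601 to 122443422, minus strand in GRCm38) had the lowest single ratio among the 32, -2.501 at 12 h. It lost its call in a fit of only these 8 libraries, at -1.24. Acat2, the thiolase that starts the pathway, gave 35.4, 42.9, 47.6 and 38.6 CPM unstimulated and 37.7, 22.7, 10.3 and 11.4 CPM with the combination, so the libraries overlapped at 2 h and were far apart from 12 h on (-1.04 ± 0.22 SE, adjusted p = 2.74e-04, and -1.14 without a call in a fit of only these 8 libraries). Hmgcs1 fell by less (-0.59 ± 0.15 SE, adjusted p = 0.0015), with 167, 199.5, 238 and 188 CPM unstimulated and 154, 172, 92.6 and 104 CPM with the combination, where the 6 h library lay within the unstimulated range and those of 12 h and 24 h lay far below it. It lost its call without the 12 h libraries (-0.37) or the 24 h libraries (-0.50). The kinases of mevalonate, Pmvk and Mvk, fell by 0.79 and 0.71, and Fdps, the farnesyl pyrophosphate synthase, by 0.75. Idi1, the isopentenyl diphosphate isomerase, was not called (-0.47 ± 0.22 SE, adjusted p = 0.0825). Fdps shares 1124 exonic bases with another annotated gene on its strand, Gm43738, so its reads may be split between them.

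Of the 11 genes from squalene to cholesterol, 9 fell, against 21.2% of all genes tested, with a median of -0.59. Nsdhl, the dehydrogenase that removes methyl groups from lanosterol products, was flat in unstimulated cells at 64.4, 63.05, 64.95 and 64.9 CPM and read 61.5, 40.3, 18.2 and 21.6 CPM with the combination. All 4 lay below the unstimulated range, the 2 h library by little and the 12 h and 24 h libraries by most. The change was -0.91 ± 0.18 SE, adjusted p = 1.48e-04, with no call in a fit of only these 8 libraries (-0.99). Tm7sf2 fell by 0.84 at low counts, Lss, the lanosterol synthase, by 0.73, and Hsd17b7, a ketosteroid reductase, by 0.66. Sqle fell by 0.60, Fdft1, the squalene synthase, by 0.59, Cyp51, the lanosterol demethylase, by 0.59 and Msmo1 by 0.41. Dhcr7, the reductase of the last step, fell by 0.34. The genes without a call were 2 enzymes of the late steps, the isomerase Ebp (-0.09 ± 0.09 SE, adjusted p = 0.448) and the desaturase Sc5d (0.13 ± 0.09 SE, adjusted p = 0.232). Sc5d read 78.9, 71.1, 90.03 and 73.98 CPM unstimulated and 72.5, 101, 91.8 and 78.5 CPM with the combination. The 6 h and 12 h libraries of the combination lay above every unstimulated library, that of 12 h by little. Those of 2 h and 24 h lay within the unstimulated range. The single ratio at 6 h was 0.51. Fdft1 shares 774 exonic bases with Ctsb on the opposite strand and Tm7sf2 532 with Vps51 on its own. Cyp51 shares 166 with Akap9 and Lss 381 with an antisense gene, both on the opposite strand, and the strand setting of the counting is not given in the sources used here. Cyp51 lost its call without the 12 h libraries (-0.35) or the 24 h libraries (-0.43).

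The regulators fell as well, though not all at the same durations. All 5 genes of SREBP control were called with the combination, at a median of -0.32, against 21.2% of all genes tested that fell. Srebf1 had its lowest ratio at 2 h (-0.48) and was not called in the 12 h and 24 h libraries alone. Insig1, which retains SREBP in the endoplasmic reticulum and is itself an SREBP target, read 81.7, 66.3, 82.5 and 84.6 CPM unstimulated and 77.6, 45.8, 38.2 and 44.8 CPM with the combination. The 2 h library lay inside the unstimulated range and the other 3 below it (-0.62 ± 0.14 SE, adjusted p = 4.33e-04). Insig2, its relative, fell by 0.48, Srebf2, the factor most tied to sterol synthesis, by 0.32, the escort protein gene Scap by 0.30 and Srebf1, the factor most tied to fatty acid synthesis, by 0.21. Srebf2 stood at 262, 217, 247 and 222 CPM unstimulated and 245, 215, 133 and 169 CPM with the combination, with the low values at 12 and 24 h. Without the 12 h libraries, Srebf1 (-0.19), Srebf2 (-0.15), Scap (-0.24) and Insig2 (-0.41) lost their calls, and so did Srebf2 (-0.29) and Insig2 (-0.30) without those of 24 h and Srebf1 without those of 2 h (-0.12). Scap shares exonic bases with another annotated gene on the opposite strand, and Srebf1 109 with Rai1. Stard4, a carrier that moves sterol between membranes, went further: it read 52.4, 53.2, 68.01 and 71.3 CPM unstimulated and 52.7, 32.8, 23.8 and 21.4 CPM with the combination (-0.91 ± 0.19 SE, adjusted p = 1.66e-04, and -0.96 without a call in a fit of only these 8 libraries). The groups met at 2 h only.

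Of the 5 fatty acid genes, 4 fell with the combination, against 21.2% of all genes tested, with a median of -0.78. Scd2 (ENSMUSG00000025203, chromosome 19, 44293676 to 44306864, plus strand in GRCm38) gave 1025, 761, 1155 and 1255 CPM unstimulated and 774, 270.1, 366 and 495 CPM with the combination (-1.18 ± 0.16 SE, adjusted p = 2.92e-07). It was lower at each duration, and its 2 h value with the combination lay within the unstimulated range, just above the unstimulated 6 h library. The call of Scd2 held in each of the 12 alternatives run. Scd1 fell by 0.78 and Elovl6, the elongase of palmitate, by 0.87, from 126, 166, 161 and 132 CPM to 132, 94.3, 53.7 and 47.9 CPM. Acaca, the acetyl-CoA carboxylase, fell by 0.21, and Fasn was not called (-0.23 ± 0.10 SE, adjusted p = 0.0671). Of the suppliers of acetyl units, Acss2 fell by 0.97, at under 6 CPM in every unstimulated library and with exonic bases shared with Ggt7 (197), Acss2os (335) and Gss (395) on the opposite strand, Acly by 0.19, and the acetoacetyl-CoA synthetase Aacs was not called (-0.16 ± 0.09 SE, adjusted p = 0.154). The calls of Acaca and Acly were lost without the 6 h libraries (-0.23 and -0.19), the 12 h libraries (-0.08 and -0.12) or the 24 h libraries (-0.19 and -0.18). Scd1 and Scd2 are near relatives, and how reads shared by both were counted is not given in the sources used here.

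The median decrease was larger at 12 and 24 h than at 2 and 6 h. The median log2 ratio of the 32 genes to unstimulated cells was -0.09, -0.33, -1.20 and -0.99 at 2, 6, 12 and 24 h of the combination, while the median of all genes tested stayed between -0.03 and -0.02. Not every gene took this course. Ratios of Dhcr7 were -0.62, -0.29, -0.26 and -0.22, and those of Srebf1 -0.48, -0.06, -0.27 and -0.04, both lowest at 2 h. A slope of the effect on log2 hours, that is the change in the log2 effect per doubling of time, was negative and called for 15 of 32 genes, against 9.37% of all genes tested. The steepest were Acat2 (-0.60 ± 0.11 SE, adjusted p = 4.19e-04), Mvd (-0.55 ± 0.10 SE, adjusted p = 2.13e-04) and Stard4 (-0.51 ± 0.09 SE, adjusted p = 1.17e-04), followed by Nsdhl (-0.48) and Elovl6 (-0.47). Without the 2 h libraries, 2 of the 15 slopes were called, those of Hsd17b7 (-0.55) and Stard4 (-0.53), and that of Scd2 turned from -0.28 to 0.08.

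**Figure D2:**
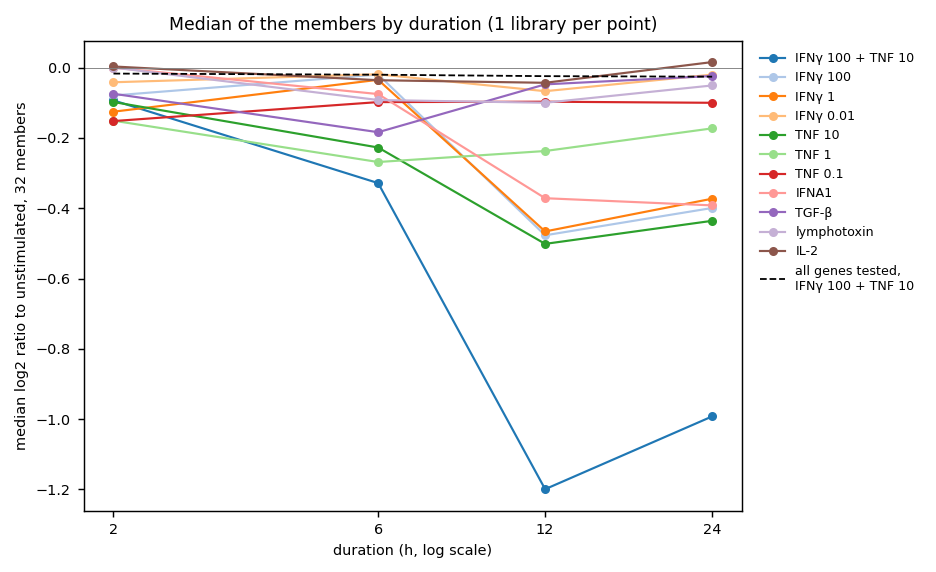
Each point is the median log2 ratio of the 32 genes to unstimulated cells in 1 library, by hours on a log axis, with 1 line per stimulus. The line of the combination leaves the others at 12 h (-1.20), and at 24 h the lines of IFNγ at 100 ng/ml (-0.40), TNF at 10 ng/ml (-0.44) and IFNA1 (-0.39) lie close together.

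The 2 early and the 2 late durations were also fitted apart. Among the 2 h and 6 h libraries, 4 genes fell with the combination, against 4.92% of the genes tested: Scd2 (-0.88 ± 0.22 SE, adjusted p = 0.0167), Mvk (-0.48), Dhcr7 (-0.44) and Scd1 (-0.39). The early median of the 32 was -0.24. Among the 12 h and 24 h libraries, 28 genes fell, against 21.2% of the genes tested, with a median of -1.07. The largest late changes were those of Mvd (-2.13 ± 0.16 SE, adjusted p = 6.91e-11), Acat2 (-1.96 ± 0.15 SE, adjusted p = 1.95e-10), Nsdhl (-1.68), Stard4 (-1.63), Acss2 (-1.53) and Elovl6 (-1.52). The 4 genes without a late call were Ebp (-0.18 ± 0.12), Sc5d (0.06 ± 0.08), Srebf1 (-0.15 ± 0.11) and Fasn (-0.20 ± 0.15). Each late value rests on 2 libraries per group, and its spread is pooled over all 12 groups.

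**Figure D3:**
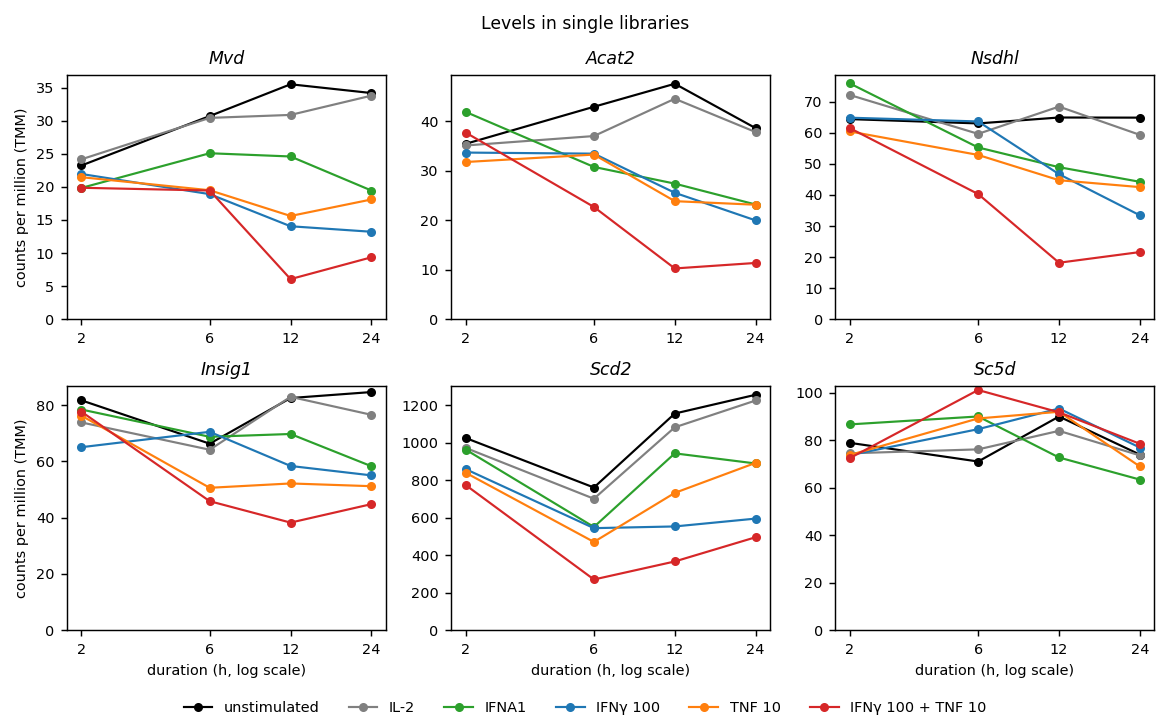
Points are CPM in single libraries by hours on a log axis for Mvd, Acat2, Nsdhl, Insig1, Scd2 and Sc5d in 6 of the groups. For Mvd at 12 h, unstimulated cells stood at 35.5 CPM, IFNA1 at 24.6, TNF at 10 ng/ml at 15.6, IFNγ at 100 ng/ml at 14.1 and the combination at 6.06, whereas the lines of Sc5d cross.

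IFNγ alone was given over a range of 4 orders of magnitude in dose. At 100 ng/ml, 9 of 32 genes fell over the 4 durations, against 9.3% of all genes tested, with a median of -0.28: Mvd (-0.85 ± 0.22 SE, adjusted p = 0.00528), Scd2 (-0.70 ± 0.16 SE, adjusted p = 0.00152), Tm7sf2 (-0.60), Mvk (-0.50), Scd1 (-0.34), Srebf2 (-0.28), Scap (-0.28), Srebf1 (-0.23) and Acly (-0.19). Mvd read 21.96, 18.9, 14.1 and 13.2 CPM at 2, 6, 12 and 24 h, below every unstimulated library, and Mvk read 14.2, 15.4, 15.8 and 13.6 CPM, also below all of them and at a steady level. Scd2 read 859, 544, 553 and 595 CPM, so its 2 h library lay within the unstimulated range. The 9 calls became 1 (Mvk, -0.49) without the 12 h libraries, 5 without those of 24 h and 5 without those of 6 h. Mvd was at -0.69 without the 12 h and -0.67 without the 24 h libraries, where its call was lost, and Scd2 at -0.57 in both.

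The medians with IFNγ at 100 ng/ml were -0.08, -0.02, -0.48 and -0.40 at 2, 6, 12 and 24 h. Slopes on log2 hours were called for 5 genes, against 3.43% of all genes tested: Mvd (-0.39 ± 0.10 SE, adjusted p = 0.0125), Nsdhl (-0.26), Elovl6 (-0.25), Hsd17b7 (-0.23) and Scd1 (-0.18). Among the early libraries 0 genes were called (0.675% of the genes tested), with 7 at an unadjusted p under 0.05 by edgeR. Among the late libraries 21 fell, against 13% of the genes tested, with a median of -0.44. They were led by Mvd (-1.35 ± 0.15 SE, adjusted p = 1.61e-07), Scd2 (-1.07 ± 0.08 SE, adjusted p = 5.50e-10), Acat2 (-0.92), Tm7sf2 (-0.80) and Elovl6 (-0.80). No slope was called without the 2 h or without the 24 h libraries, where that of Mvd was -0.34 and -0.47. At 12 and 24 h the 5 fibroblast markers summed to 30.3 and 28.4 CPM with IFNγ at 100 ng/ml, against 41.9 to 51.96 CPM in unstimulated cells, and the 5 macrophage markers to 29.2 and 44.6 CPM, against 51.3 to 58.6. Of the 7 tested markers of fibroblasts, macrophages and endothelium, Cd14 alone was called (-0.42 ± 0.15 SE, adjusted p = 0.0481), and the mitochondrial share was 0.693% to 1.23%. Their part in the decreases was not tested.

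At 1 ng/ml IFNγ, 2 genes fell over all durations, Scd2 (-0.66 ± 0.16 SE, adjusted p = 0.00357) and Scd1 (-0.37 ± 0.11 SE, adjusted p = 0.0247), against 5.47% of all genes tested, and both lost their calls without the 12 h libraries (Scd2 -0.55, Scd1 -0.27) or the 24 h libraries (-0.57 and -0.29). DESeq2 called 6. Among the early libraries 0 were called (0.198% of the genes tested, 1 of the 32 at an unadjusted p under 0.05). Among the late libraries 19 fell, against 11% of the genes tested, including Mvd (-1.13 ± 0.14 SE, adjusted p = 2.75e-06), Scd2 (-0.98) and Acat2 (-0.97). The late median was -0.45. Fibroblast markers summed to 32.6 and 27.2 CPM and macrophage markers to 30.6 and 38.9 CPM at 12 and 24 h, both below the unstimulated ranges, and their part was not tested. Between 100 and 1 ng/ml, edgeR called 0 of the 32 genes over all durations (0.0% of all genes tested, 1 of the 32 at an unadjusted p under 0.05, and 0 by DESeq2) and 0 in the late libraries (0.0%, with 0 of the 32 at an unadjusted p under 0.05). For Mvd the late difference of 100 from 1 ng/ml was -0.22 ± 0.16, so a difference of this size could not be resolved.

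At 0.01 ng/ml IFNγ, 0 genes were called over all durations (0.0% of all genes tested, 1 of the 32 at an unadjusted p under 0.05, and 0 by DESeq2) or in the late libraries (0.0%, 0 at an unadjusted p under 0.05). Medians by duration lay between -0.07 and -0.02. Mvd read 25.3, 27.1, 35.6 and 30.4 CPM and Scd2 916, 708, 1105 and 1189 CPM at this dose.

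With TNF at 10 ng/ml, 8 of 32 genes fell over the 4 durations, against 7.3% of all genes tested, with a median of -0.32. They were Mvd (-0.72 ± 0.22 SE, adjusted p = 0.0195), Scd2 (-0.54), Mvk (-0.53 ± 0.12 SE, adjusted p = 0.00229), Insig2 (-0.49), Insig1 (-0.46), Scd1 (-0.44), Ebp (-0.40) and Srebf1 (-0.29). Mvk read 14.4, 15.7, 13.8 and 13.4 CPM and Ebp 31.5, 24.7, 24.1 and 22.3 CPM, of which the 2 h value alone was inside the unstimulated range for Ebp and none was for Mvk. Unstimulated cells stood at 31.9, 39.7, 32.6 and 30.2 CPM for Ebp. The count of 8 became 3 without the 12 h libraries (Mvk -0.48, Ebp -0.37 and Srebf1 -0.29), 3 without those of 24 h, 2 without those of 6 h and 13 without those of 2 h, where 9.14% of the genes tested fell. With TNF and unstimulated libraries alone 14 fell, against 5.54% of the genes tested in that fit.

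The medians with TNF at 10 ng/ml were -0.10, -0.23, -0.50 and -0.44 at 2, 6, 12 and 24 h. By edgeR, 0 slopes were called (2.43% of all genes tested had a called slope in either direction), with 8 of the 32 at an unadjusted p under 0.05, and 0 by DESeq2. Among the early libraries 0 genes were called (0.601% of the genes tested), again with 8 at an unadjusted p under 0.05. Among the late libraries 20 fell, against 8.8% of the genes tested, with a median of -0.49, led by Mvd (-1.05 ± 0.14 SE, adjusted p = 5.92e-06), Acat2 (-0.87), Tm7sf2 (-0.86), Stard4 (-0.82), Insig1 (-0.70) and Insig2 (-0.70). At 12 and 24 h fibroblast markers summed to 51.7 and 82.5 CPM and endothelial markers to 9.12 and 18.5 CPM, against 41.9 to 51.96 and 3.74 to 6.80 CPM in unstimulated cells. Pdgfra (0.74 ± 0.18 SE, adjusted p = 0.00368) and Cdh5 (0.88 ± 0.27 SE, adjusted p = 0.0185) rose, and the mitochondrial share was 0.695% to 1.15%. Their part in the decreases was not tested.

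In the fits that held all 12 groups, fewer genes were called at the lower doses of TNF. This did not hold with the compared groups alone, where 1 ng/ml had no fewer calls than 10 ng/ml. At 1 ng/ml, edgeR called 0 genes over all durations (0.713% of all genes tested fell, 10 of the 32 genes at an unadjusted p under 0.05, and 0 by DESeq2), with a median of -0.22, and 15 fell when these and the unstimulated libraries were fitted alone, against 2.7% of the genes tested in that fit. In the late libraries 4 genes fell, against 1.14% of the genes tested: Acat2 (-0.59 ± 0.13 SE, adjusted p = 0.0103), Elovl6 (-0.40), Stard4 (-0.37) and Scd1 (-0.36). At 0.1 ng/ml, 0 were called over all durations (0.0164% of all genes tested, 0 of the 32 at an unadjusted p under 0.05, and 0 by DESeq2) and 0 in the late libraries (0.0%, 1 at an unadjusted p under 0.05). Between 10 and 1 ng/ml, 0 of the 32 genes were called over all durations (0.238% of all genes tested, 1 of the 32 at an unadjusted p under 0.05, and 0 by DESeq2). In the late libraries 5 were lower at 10 ng/ml, against 0.826% of the genes tested: Mvd (-0.66 ± 0.15 SE, adjusted p = 0.00869), Stard4 (-0.45), Insig1 (-0.38), Scd2 (-0.33) and Lss (-0.33). For Mvd the 12 h and 24 h libraries read 15.6 and 18.1 CPM at 10 ng/ml and 25.98 and 27.1 CPM at 1 ng/ml, so both were lower at the higher dose.

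With IFNA1, a type I interferon, 2 genes fell over the 4 durations, Fasn (-0.39 ± 0.10 SE, adjusted p = 0.0105) and Dhcr7 (-0.20 ± 0.07 SE, adjusted p = 0.0487), against 3.09% of all genes tested. Fasn read 632, 824, 842 and 449 CPM unstimulated and 489.6, 791, 481 and 354 CPM with IFNA1, lower at each duration with overlapping ranges. Neither call held without the 12 h libraries (Fasn -0.24, Dhcr7 -0.19) or with the compared groups alone (-0.37 and -0.18), and that of Dhcr7 was also lost without the 2 h, 6 h or 24 h libraries (-0.19, -0.20 and -0.16). The medians with IFNA1 were 0.00, -0.08, -0.37 and -0.39 at 2, 6, 12 and 24 h. Among the early libraries 0 were called (0.165% of the genes tested, 0 of the 32 at an unadjusted p under 0.05). Among the late libraries 20 fell, against 3.47% of the genes tested, with a median of -0.38. They included Acat2 (-0.75 ± 0.14 SE, adjusted p = 7.44e-04), Idi1 (-0.73), Elovl6 (-0.66), Mvd (-0.65), Hsd17b7 (-0.60), Lss (-0.58) and Fasn (-0.56 ± 0.15 SE, adjusted p = 0.0296), while Scd1 (-0.10 ± 0.08), Acss2 (0.10 ± 0.27) and Srebf1 (0.07 ± 0.11) were not called. At 12 and 24 h fibroblast markers summed to 77.9 and 74.2 CPM and macrophage markers to 72.5 and 87.9 CPM with IFNA1, above the unstimulated ranges of 41.9 to 51.96 and 51.3 to 58.6 CPM. By edgeR, 0 of the 7 tested markers of these lists and endothelium were called over all durations, with 2 at an unadjusted p under 0.05, and the mitochondrial share was 0.734% to 1.44%. Their part in the decreases was not tested. The difference between early and late effects of IFNA1, and of IFNγ at 1 ng/ml, was not tested.

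**Figure D4:**
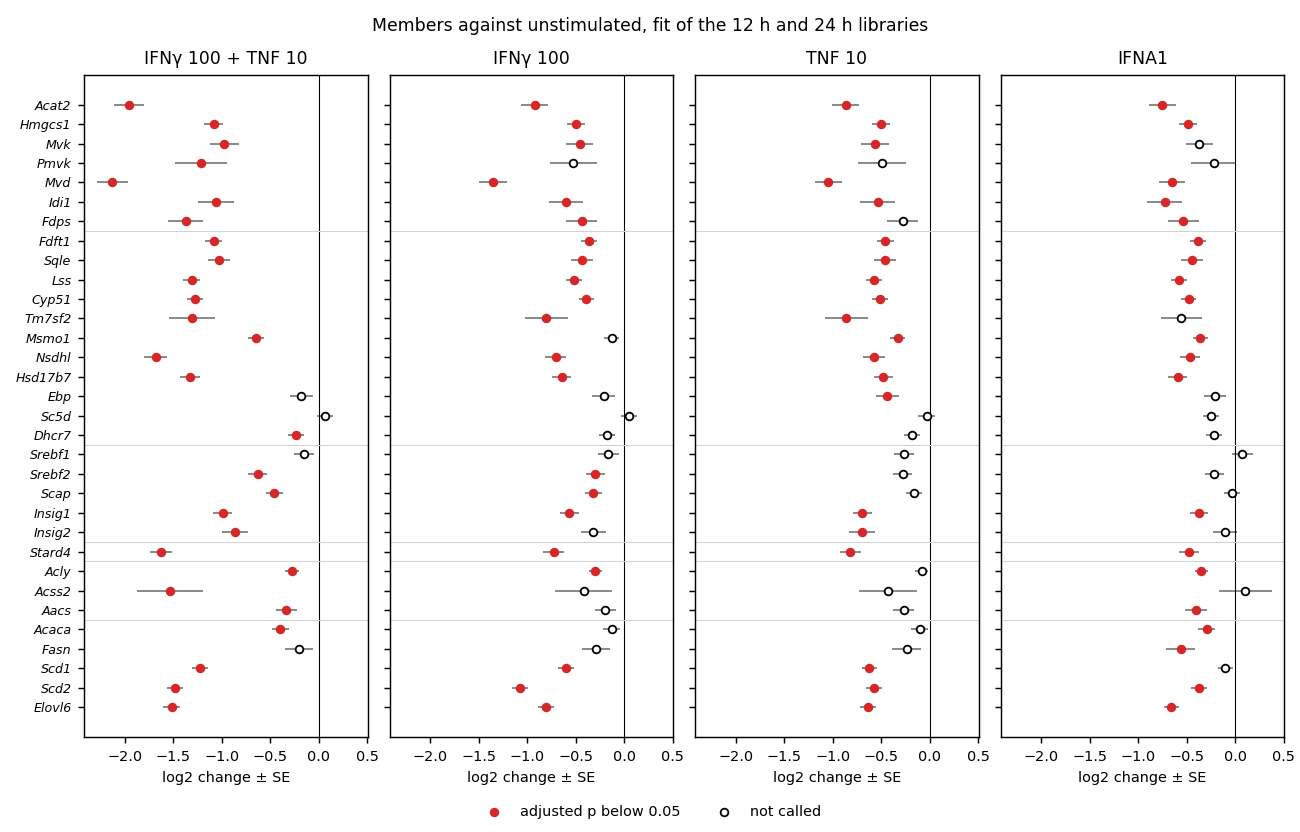
Points are log2 changes against unstimulated cells in the 12 h and 24 h libraries for the 32 genes, in 1 panel each for the combination, IFNγ at 100 ng/ml, TNF at 10 ng/ml and IFNA1, with bars for the SE and filled points where the adjusted p was under 0.05. Filled points number 28, 21, 20 and 20, Mvd is the leftmost in the first 3 panels, and Sc5d is open in all 4.

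Few or none of the genes were called with TGF-β, lymphotoxin or IL-2. With TGF-β, Scd1 (-0.36 ± 0.11 SE, adjusted p = 0.0427) and Srebf1 (-0.24 ± 0.08 SE, adjusted p = 0.0366) fell over all durations, against 3.25% of all genes tested, and Scd1 alone fell in the late libraries (-0.43 ± 0.08 SE, adjusted p = 4.79e-04, against 4.16% of the genes tested). Scd1 read 406, 335, 376 and 422 CPM unstimulated and 366, 250.4, 287 and 307 CPM with TGF-β, lower at each duration and by least at 2 h. Without the 12 h libraries neither was called (Scd1 -0.35, Srebf1 -0.18). Scd1 also lost its call without the 6 h (-0.34) or 24 h libraries (-0.33) and Srebf1 without those of 2 h (-0.19). With lymphotoxin, edgeR called 0 of the 32 genes over all durations (0.0% of all genes tested, 0 at an unadjusted p under 0.05) and 0 late (0.0%, 2 at an unadjusted p under 0.05). With IL-2 the counts were 0 (0.0% of all genes tested, 0 at an unadjusted p under 0.05) and 0 late (0.0%, 0 at an unadjusted p under 0.05). DESeq2 also called 0 in these 2 groups over all durations.

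The combination was next set against each cytokine alone, to ask whether adding the second changed these genes further. Against IFNγ at 100 ng/ml, 8 genes were lower over the 4 durations, against 5.42% of all genes tested: Acss2 (-0.70 ± 0.23 SE, adjusted p = 0.0352), Nsdhl (-0.58 ± 0.19 SE, adjusted p = 0.033), Lss (-0.50), Scd2 (-0.48), Scd1 (-0.45), Fdft1 (-0.44), Msmo1 (-0.37) and Acaca (-0.23). In the late libraries 21 were lower, against 6.71% of the genes tested, with a median of -0.53, led by Acss2 (-1.11), Acat2 (-1.03 ± 0.17 SE, adjusted p = 7.44e-05), Nsdhl (-0.98) and Fdps (-0.93). At 12 h Acat2 read 25.5 CPM with IFNγ and 10.3 CPM with the combination, and at 24 h 19.96 and 11.4 CPM. The 8 calls over all durations became 0 without the 12 h or the 24 h libraries (Nsdhl -0.42 and -0.56), 1 without those of 6 h (Msmo1, -0.33) and 18 without those of 2 h, where 8.31% of the genes tested were lower.

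Against TNF at 10 ng/ml, 3 genes were lower with the combination, against 4.84% of all genes tested, Scd2 (-0.64 ± 0.16 SE, adjusted p = 0.00487), Scd1 (-0.34) and Acaca (-0.25). Ebp was higher (0.31 ± 0.09 SE, adjusted p = 0.0227), against 9.12% of all genes tested that were higher. Ebp read 31.5, 24.7, 24.1 and 22.3 CPM with TNF and 36.99, 34.8, 27.2 and 27.7 CPM with the combination, higher with both cytokines at each duration. In the late libraries 20 genes were lower, against 7.49% of the genes tested, with a median of -0.55, led by Nsdhl (-1.11 ± 0.13 SE, adjusted p = 5.13e-07), Acss2 (-1.10), Acat2 (-1.09), Fdps (-1.09) and Mvd (-1.08). The 4 calls over all durations became 1 without the 12 h libraries (Ebp, 0.34), 1 without those of 24 h, 1 without those of 6 h and 14 without those of 2 h, where 20.1% of the genes tested were called, and Scd2 was at -0.56 without those of 24 h.

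Whether the combination differed from the sum of both single log2 effects was tested as well. By edgeR, 0 of the 32 genes departed from the sum over all durations (0.0819% of all genes tested, 3 of the 32 at an unadjusted p under 0.05), and 0 in the late libraries (0.769%, 5 of the 32 at an unadjusted p under 0.05). DESeq2 called 0 over all durations. The median departure of the 32 was 0.02 on the log2 scale. For Mvd the late effects were -1.35 with IFNγ, -1.05 with TNF and -2.13 with both, a departure of 0.27 ± 0.23. For Nsdhl they were -0.71, -0.57 and -1.68, a departure of -0.40 ± 0.17. The largest late departures of the 32 were those of Acss2 (-0.69 ± 0.47), Fdps (-0.65 ± 0.25) and Ebp (0.47 ± 0.17). None of these passed the test, so departures of this size were not resolved.

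The genes also moved with time, as many of all genes tested did, in the groups where 0 of them were called against unstimulated cells. In the unstimulated, IL-2 and lymphotoxin libraries, 3 per duration, 10 genes rose and 6 fell from 2 to 6 h, against 18.9% and 20.5% of the genes tested. From 6 to 12 h, 14 rose and 2 fell, against 22% and 21%. From 12 to 24 h, 4 rose and 13 fell, against 12.9% and 13.9%. The 6 that fell from 2 to 6 h and the 4 that rose from 12 to 24 h were near the share of all genes tested. In unstimulated, IL-2 and lymphotoxin cells, 16 of the 32 genes had their highest mean level at 12 h. The share of all genes tested that did so was not computed, so this count cannot be called a trait of the 32. Duration cannot be told apart from any difference in harvest or sequencing between the 4 times.

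Single genes took different courses. Dhcr7 read 54.2, 73.3, 89.1 and 87.6 CPM in unstimulated cells at 2, 6, 12 and 24 h and rose from 2 to 6 h by 0.56 ± 0.07 SE, adjusted p = 2.58e-08. Fasn read 632, 824, 842 and 449 CPM, rose by 0.40 from 2 to 6 h and fell from 12 to 24 h by 0.76 (adjusted p = 5.08e-15). Aacs, with 71.6, 99.9, 98.6 and 63.6 CPM, took the same turn. Scd2 did the reverse: it fell by 0.46 from 2 to 6 h and rose by 0.60 ± 0.04 SE, adjusted p = 1.39e-15 from 6 to 12 h. Insig1 fell by 0.29 and then rose by 0.46, and Acss2 fell by 0.63 from 2 to 6 h and rose by 0.69 from 12 to 24 h. Each ratio at a single duration given above was taken to the unstimulated library of the same duration.

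**Figure D5:**
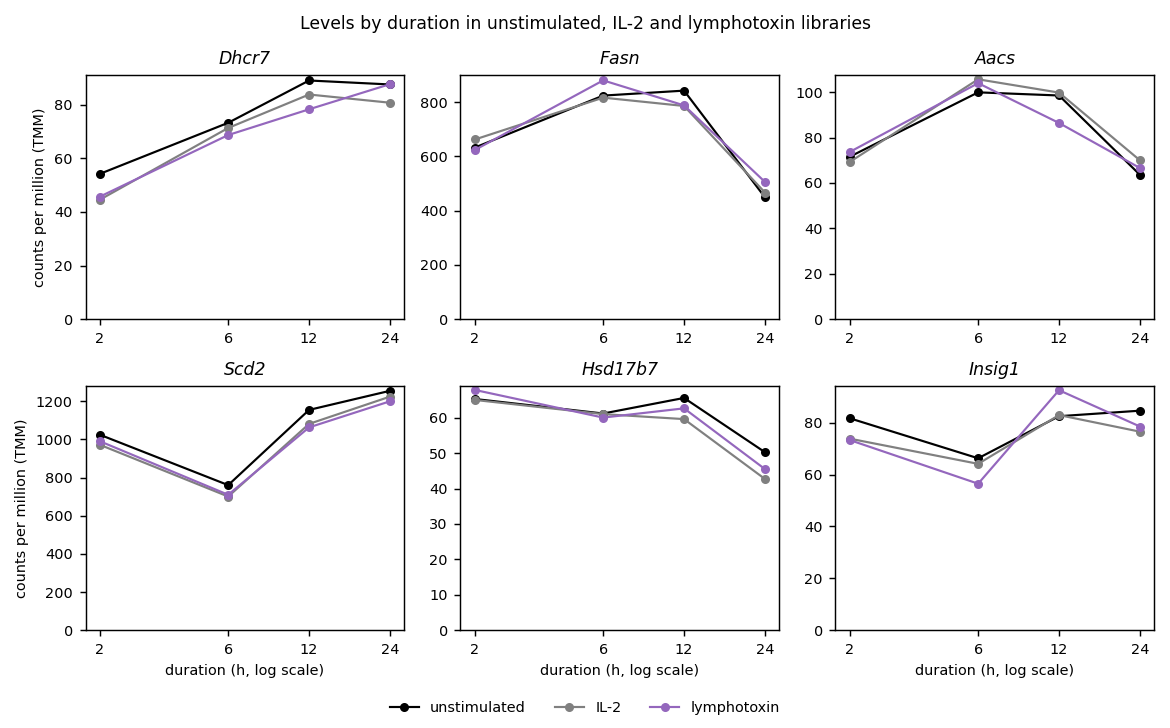
Points are CPM in single libraries by hours on a log axis for Dhcr7, Fasn, Aacs, Scd2, Hsd17b7 and Insig1 in unstimulated, IL-2 and lymphotoxin cells. The 3 lines run together in each panel, with Fasn at 842 CPM at 12 h and 449 CPM at 24 h in unstimulated cells and Scd2 lowest at 6 h.

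Over all 48 libraries, where the mean over the 12 groups is compared, 8 genes rose and 7 fell from 2 to 6 h, against 29.6% and 27.5% of all genes tested. From 6 to 12 h, 5 rose and 7 fell (27.6% and 27.1% of all genes tested), and from 12 to 24 h, 1 rose and 11 fell (15.2% and 16.9%). These means include the late decreases with the cytokines described above.

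Related genes outside the 32 did not share one direction with the combination. Of 24 other sterol and SREBP-target genes, 9 fell and 8 rose, against 21.2% and 20.9% of all genes tested, with a median of -0.02. Lpin1, a phosphatidate phosphatase and SREBP target, fell by 1.09, and Stard5, a sterol-binding relative of Stard4, rose by 1.36 ± 0.20 SE, adjusted p = 5.07e-07. Npc2, which moves cholesterol out of lysosomes, rose by 0.83. Of 20 other fatty acid genes, 8 fell and 4 rose, with a median of -0.08. The desaturases Fads1 and Fads2 fell by 0.64 and 0.63, the acyl-CoA synthetase Acsl3 fell by 1.04, and the elongase Elovl7 rose by 1.76. Of 12 genes of LXR action, sterol export and esterification, 9 were tested, 3 rose and 2 fell. Those that rose were Ch25h, described next, Nr1h2, which encodes LXRβ (0.27), and Soat1, which esterifies cholesterol (0.15). Nr1h3, which encodes the sterol-sensing receptor LXRα, fell by 1.21, and Mylip, an LXR target, by 0.64. The sterol exporters Abca1 (-0.77 ± 0.35) and Abcg1 (1.07 ± 0.51) did not pass the test.

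Ch25h makes 25-hydroxycholesterol, an oxysterol known to hold back SREBP release. It read 0.574, 0.617, 1.45 and 0.648 CPM in unstimulated cells and 3.92, 11.1, 29.7 and 28.3 CPM with the combination, above the unstimulated range at each duration and highest at 12 and 24 h (4.41 ± 0.46 SE, adjusted p = 8.78e-10). The unstimulated levels rest on few counts, as 1 count was worth 0.129 to 0.165 CPM in these libraries, so the size of this change is uncertain. It read 4.41, 3.41, 22.8 and 14.9 CPM with TNF at 10 ng/ml, 0.864, 0.970, 6.10 and 4.23 CPM with IFNγ at 100 ng/ml and 4.38, 0.454, 5.19 and 2.23 CPM with IFNA1. Its part in the decrease of the sterol genes was not tested.

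Other measures were read beside the decreases with the combination. Of 18 cell cycle genes, 6 fell and 2 rose, against 21.2% and 20.9% of all genes tested, with changes between -0.48 and 0.26 and a median of -0.03. The 7 T and NK cell markers summed to at most 0.400 CPM in any library and the 4 adipocyte markers to at most 0.141 CPM. Of the 5 macrophage markers, Cd14 made up most of a summed level of 51.3 to 58.6 CPM in unstimulated cells and 23.6 to 50.4 CPM with the combination, where Cd14 fell (-0.52 ± 0.15 SE, adjusted p = 0.00679), and Adgre1 had 0 counts in all 48 libraries. The 5 fibroblast markers summed to 41.9 to 51.96 CPM and 31.1 to 48.7 CPM, with 0 of 4 tested called. Of the 4 endothelial markers, Cdh5 alone was tested and rose (0.93 ± 0.26 SE, adjusted p = 0.0044), and the list summed to 3.74 to 6.80 CPM in unstimulated cells and 4.36 to 13.5 CPM with the combination. The mitochondrial share was 0.786% to 1.199% in unstimulated cells and 0.513% to 1.27% with the combination, lowest at 12 and 24 h. The part of these measures in the result was not tested.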

How the data were processed

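Per the labels, poly(A) RNA of NMM cells (RIN over 8) was sequenced from stranded libraries, 1 for each of 12 stimuli and 4 durations. The authors deposited unnormalized counts of reads for each Ensembl gene, aligned with HISAT to GRCm38, per the submitters' processing notes. Sources used here do not give the HISAT version, counting tool, annotation release or strand setting. Counts were fitted in R 4.3.3 with edgeR 4.0.16 (filter: minimum count 10, minimum total 15, leaving 12203 genes; TMM factors; robust quasi-likelihood F test, two-sided). The model held 1 term per stimulus and 1 per duration (33 residual degrees of freedom), and a second model added 1 slope per stimulus on log2 hours (22). The duration term pairs the libraries of 1 duration across stimuli. Calls have a Benjamini-Hochberg adjusted p under 0.05 over all genes. Each SE is approximate, the size of the log2 change over the root of its F value. Single-library ratios use a prior count of 2 and carry no test. Alternatives were DESeq2 1.42.0, other size factors, no filter, subsets of libraries and durations, and another reference group. The early and late fits are 2 of these alternatives. Scripts were tested on simulated data. Members, roles and lists were chosen with earlier results of these data known. Any of the 32 members could be named, and other genes come from the lists. Sequences are from RefSeq (GRCm38.p6), with 26 of 32 members matched, and exon lengths from the GENCODE annotation. The precision of a level is limited by counting: 1 count was worth 0.103 to 0.178 CPM. Supernatant of co-cultures, named in the series text, was not analysed here.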

Additional observations from a re-analysis of the deposited data

Results flagged for a closer look

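No library stood apart from the other 3 of its group in the share of counts held by the 32 genes, by Dixon's test in 12 groups of 4. The results singled out here are those whose effect against unstimulated cells differed between durations, by a called slope on log2 hours in edgeR. With the combination, the mevalonate genes with such slopes were Acat2 (-0.60 per doubling of time), Mvd (-0.55) and Fdps (-0.37). The sterol genes were Nsdhl (-0.48), Cyp51 (-0.41), Hsd17b7 (-0.39), Lss (-0.37), Fdft1 (-0.31) and Sqle (-0.24). Among regulators and carriers they were Stard4 (-0.51), Insig2 (-0.30) and Insig1 (-0.27), and among fatty acid genes Elovl6 (-0.47), Scd1 (-0.31) and Scd2 (-0.28). With IFNγ at 100 ng/ml they were Mvd (-0.39), Nsdhl (-0.26), Elovl6 (-0.25), Hsd17b7 (-0.23) and Scd1 (-0.18). Without the 2 h libraries, 2 of the 15 slopes of the combination and 0 of the 5 of IFNγ were called.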

How the results depend on the processing

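Each fit has 1 library per stimulus and duration, so an effect is judged by how differences between stimuli varied over durations. That spread is pooled over the groups in the fit, and no result has repeats of one condition. The values below are numbers of the 32 genes called. The share of all genes tested that was called changed between fits as well. For genes lower with the combination it was 21.2% with all libraries, 6.36% with the compared groups alone and 12.4% without the 12 h libraries. A change in a count between fits is therefore not in itself a result about the 32 genes. With the 12 h and 24 h libraries alone they were 21 for IFNγ at 100 ng/ml, 19 at 1 ng/ml, 20 for TNF at 10 ng/ml, 4 at 1 ng/ml, 20 for IFNA1, 1 for TGF-β, 21 and 20 for the combination against IFNγ and against TNF, and 5 between the 2 higher TNF doses. With the 2 h and 6 h libraries alone the combination had 4, and IFNγ at 100 and 1 ng/ml, TNF at 10 ng/ml, IFNA1, TGF-β and the combination against either cytokine had 0. With the compared groups alone the combination had 6, TNF at 10 ng/ml 14 and at 1 ng/ml 15, IFNγ at 1 ng/ml 6, the combination 4 against IFNγ and 2 against TNF, and the TNF slope 2. Without a duration term, that is with no replicate block, IFNγ at 100 ng/ml had 2, TNF at 10 ng/ml 1, and IFNγ at 1 ng/ml, IFNA1, TGF-β and the combination against either cytokine 0. Without a filter, IFNγ at 1 ng/ml had 1, IFNA1 and TGF-β 0, the combination against IFNγ 2 and the IFNγ slope 2, which was 1 on plain hours. DESeq2 gave 6 for IFNγ at 1 ng/ml and 1 for IFNA1, its size factors in edgeR 1 for IFNA1, and IL-2 as the reference 1 for TGF-β. Leaving out 1 duration at a time gave 19 to 27 for the combination, 1 to 10 and 0 to 7 for IFNγ at 100 and 1 ng/ml, 2 to 13 for TNF at 10 ng/ml, 0 to 5 for IFNA1, 0 to 1 for TGF-β, 0 to 18 and 1 to 14 for the combination against IFNγ and TNF, and 2 to 16, 0 to 4 and 0 to 1 for the slopes of the combination, IFNγ and TNF. In the unstimulated, IL-2 and lymphotoxin libraries alone, signs turned for Sc5d from 2 to 6 h (-0.0818), Hsd17b7 from 6 to 12 h (0.0381), and Acat2 (0.0586), Insig1 (0.0686) and Elovl6 (0.0894) from 2 to 24 h, and with 1 duration left out the combination slope of Scd2 ranged from -0.508 to 0.0801, turning without the 2 h libraries. Of 1297 alternatives run over 137 called values, 937 kept the call, 354 lost it in the same direction and 6 turned. The combination's median stayed between -1.07 and -0.24 in 12 alternatives. The causes were not tested. The replicate numbers stand for durations, so the duration term is the replicate block, and comparisons between stimuli were paired by duration in every fit but the one without it.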
